A study of Homo sapiens with 12 samples.

Results

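FOXO1, FOXO3 and FOXO4, transcription factors that AKT holds in check, and 7 genes that FOXO factors are known to induce when AKT signalling falls (CCNG2, RBL2, BTG1, PIK3IP1, IRS2, SESN1 and SESN3) were followed in PC9 cells, a human lung adenocarcinoma line that grows on a mutant EGFR. The list names 3 factors and 7 targets by their known roles, and these are 10 of the 19775 genes tested. This list and the other lists below were chosen with earlier results of these data known. Their counts beside the shares of all genes are thus a description and not a separate test. Each of the 10 genes was read from the probe sets that carry its symbol alone, 31 probe sets in all. The brightest on average over the 12 arrays stands for the gene. The 4 groups, with 3 arrays each, were the pre-miR-371 line in 2 μM erlotinib, the pre-miR-371 line in DMSO, the GFP vector line in 2 μM erlotinib and the GFP vector line in DMSO, all for 24 h. Erlotinib blocks the EGFR kinase, and DMSO is its solvent. The pre-miR-371 line carries a lentiviral precursor of the miRNA miR-371, and the GFP vector line carries a vector with green fluorescent protein. The paper's methods list a scramble hairpin in a GFP vector as the lentiviral control. Each kind is a single line (1 of each), so that an effect of the precursor and a difference between the lines made cannot be told apart. The labels do not tie the arrays to separate cultures, so that p-values measure only the spread between these arrays, which may be technical. RNA came from whole cultures, in which fewer cells of a type and less RNA per cell cannot be told apart.

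When growth factor receptors signal, PI3K activates AKT, which phosphorylates FOXO proteins. Phosphorylated FOXO proteins are bound by 14-3-3 proteins and kept in the cytoplasm. When the signal falls, they return to the nucleus and switch on genes for cell cycle arrest and quiescence (CCNG2, RBL2 and BTG1), for feedback on PI3K signalling (PIK3IP1 and IRS2) and for defence against stress (SESN1 and SESN3). The arrays measure mRNA, so that the place and the phosphorylation of the FOXO proteins were not seen.

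The mature miRNAs of the precursor are shown because they are what separates the lines by design, with the seed (bases 2 to 8) in capitals. They are RefSeq sequences on GRCh38.p14, the arm from the 3′ side at chr19:53787716-53787738 and the arm from the 5′ side at chr19:53787680-53787699, both on the plus strand.
hsa-miR-371a-3p: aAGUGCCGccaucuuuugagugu
hsa-miR-371a-5p: aCUCAAACugugggggcacu
The seeds of the arms differ. The miRNAs themselves were not analysed here, and sites for them in the 10 genes were not searched for.

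Promoters are shown for the genes whose start regions hold the core of the FOXO binding motif, GTAAACA, and for CCNG2, whose rise was among the largest. RefSeq windows (GRCh38.p14) from 250 bases before to 50 after each transcription start were searched on both strands, so that TGTTTAC on the gene's strand is also a match. The motif letters stood in 3 of the 17 windows of the 10 genes, in BTG1, PIK3IP1 and FOXO4, against 1202 of all 35116 windows (3.42%). Motif letters are in capitals.
BTG1, 250 bases before the start, chr12:92145847-92146096, minus strand: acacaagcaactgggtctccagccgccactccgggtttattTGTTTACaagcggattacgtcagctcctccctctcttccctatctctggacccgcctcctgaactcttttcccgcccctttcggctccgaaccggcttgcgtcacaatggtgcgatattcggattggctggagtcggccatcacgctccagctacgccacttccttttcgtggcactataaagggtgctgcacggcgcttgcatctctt
PIK3IP1, 30 bases around the match just after the start, chr22:31292454-31292483, minus strand: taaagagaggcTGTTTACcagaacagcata
FOXO4, 30 bases around the match just after the start, chrX:71095863-71095892, plus strand: cccggcgagtgGTAAACAgagacgtcagga
CCNG2, 250 bases before the start, no match, chr4:77156957-77157206, plus strand: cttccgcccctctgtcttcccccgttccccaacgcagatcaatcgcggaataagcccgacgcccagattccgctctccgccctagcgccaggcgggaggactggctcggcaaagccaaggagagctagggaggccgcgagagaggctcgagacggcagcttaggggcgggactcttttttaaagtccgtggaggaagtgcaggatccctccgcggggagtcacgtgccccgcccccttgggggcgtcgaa
In BTG1 the match begins 209 bases before the start, in PIK3IP1 at base 17 after it and in FOXO4 at base 24 after it. A match is a run of letters and not a measured binding site, and the windows without one only lack these letters.

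After 24 h of erlotinib, FOXO1, FOXO3, FOXO4, CCNG2, RBL2, BTG1, PIK3IP1 and SESN1 were higher than in DMSO in both lines, IRS2 was lower in both lines, and SESN3 passed the test in neither. A gene was called at a Benjamini-Hochberg adjusted p under 0.05 in limma, over all genes tested. In the pre-miR-371 line 8 of the 10 genes were thus higher and 1 was lower, where 24.8% of all genes were higher and 22.2% were lower. In the GFP vector line the counts were also 8 and 1, where 26.5% of all genes were higher and 23.4% lower. The median log2 fold change of the 10 genes was 0.90 in the pre-miR-371 line, where that of all genes was −0.03, and 0.91 in the GFP vector line, where that of all genes was 0.00. The arrays of the treatments did not overlap for 8 higher genes and 1 lower gene in the pre-miR-371 line (28.1% and 27.8% of all genes) and for 8 higher and 2 lower genes in the GFP vector line (28.5% and 25.7% of all genes). With a fold over 1.5 required as well, pre-miR-371 cells had 6 higher and 1 lower (12.6% and 9.34% of all genes), and GFP vector cells had 7 higher and none lower (14.1% and 11.7% of all genes). FOXO3 fell short of that fold in both lines, SESN1 in the pre-miR-371 line and IRS2 in the GFP vector line.

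**Figure D1:**
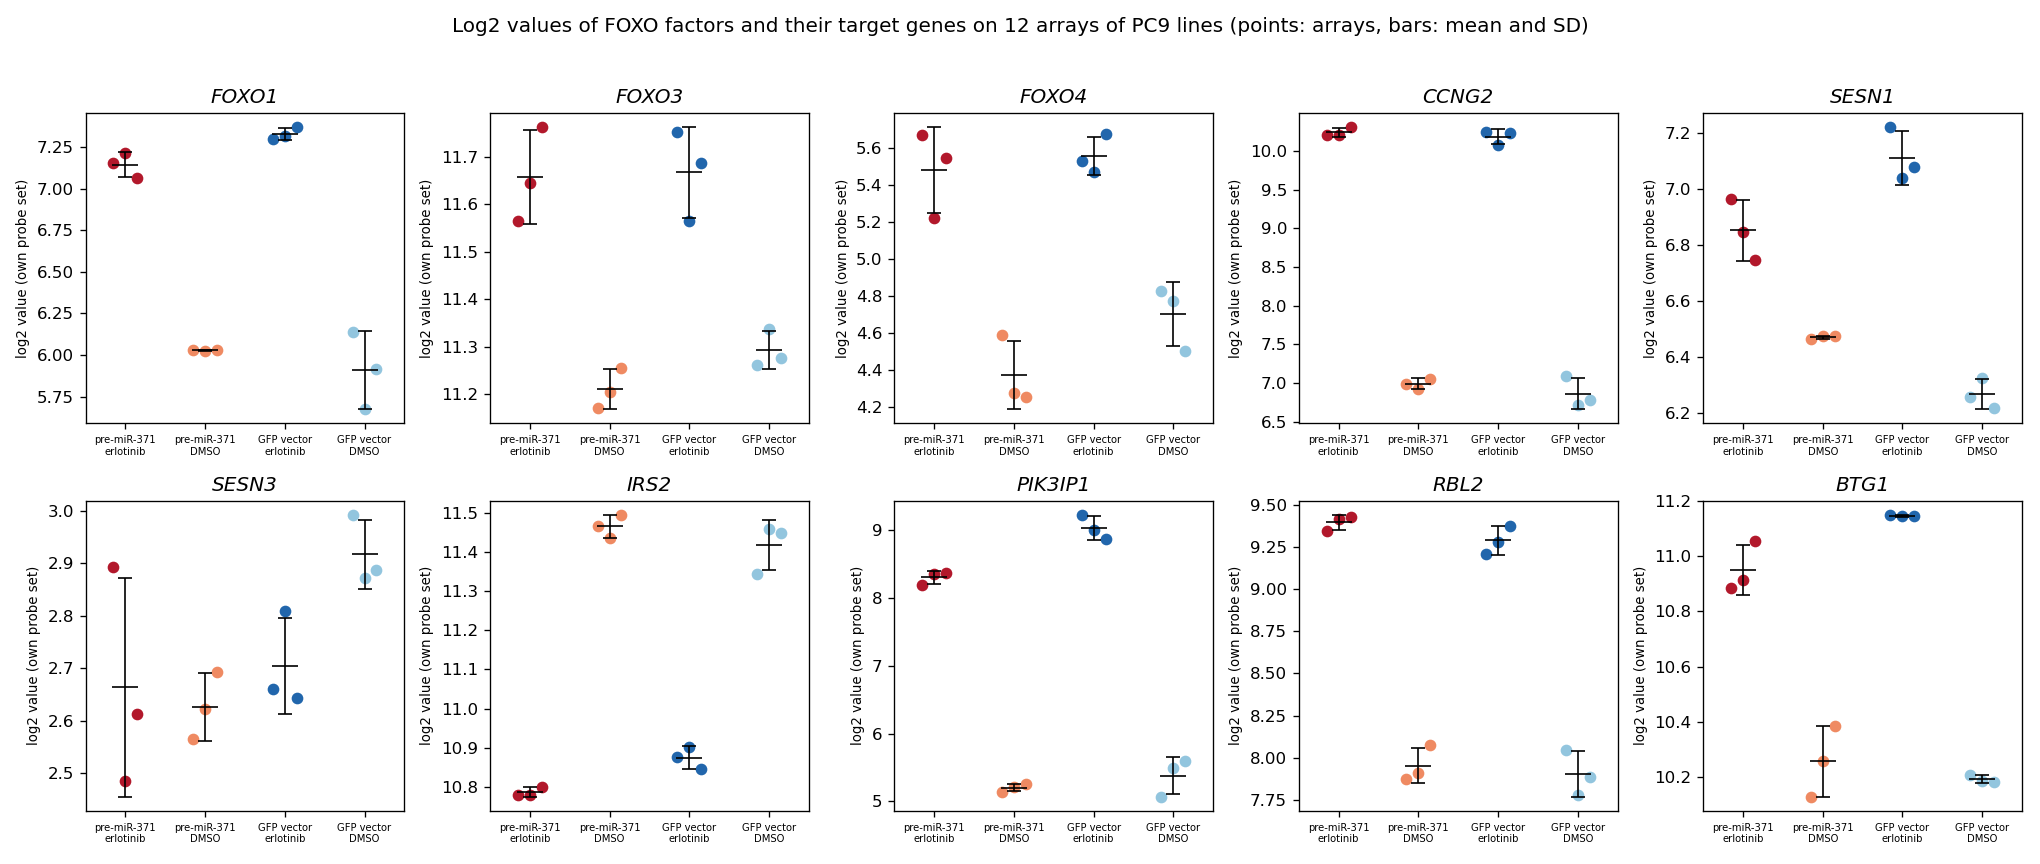
Log2 values (y axis, each panel with its own probe set and range) of the 10 genes on each array, in the 4 groups along the x axis; points are arrays, and bars are the mean and SD of 3 arrays. The erlotinib arrays lie above the DMSO arrays of the same line for 8 genes and below them for IRS2, while the groups of SESN3 all lie under 3.

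FOXO1, a FOXO factor with broad roles in metabolism and cell cycle control, had log2 values of 7.15, 7.21 and 7.07 in pre-miR-371 cells in erlotinib, against 6.03, 6.02 and 6.03 in DMSO. In GFP vector cells it had 7.30, 7.32 and 7.37 in erlotinib, against 6.14, 5.67 and 5.92 in DMSO. All 6 erlotinib arrays lay above all 6 DMSO arrays, and the DMSO arrays of the GFP vector line spread the most. The rise was 2.17-fold in pre-miR-371 cells (log2 fold change 1.12, SE 0.10, adjusted p = 7.89e-07) and 2.67-fold in GFP vector cells (1.42, SE 0.10, adjusted p = 6.90e-08).

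FOXO3, the FOXO factor most often linked to quiescence and stress survival, moved less. Its log2 values were 11.56, 11.65 and 11.76 in pre-miR-371 cells in erlotinib, against 11.17, 11.21 and 11.26 in DMSO. The GFP vector arrays had 11.75, 11.56 and 11.69 in erlotinib, against 11.26, 11.34 and 11.28 in DMSO. Again no erlotinib array was as low as any DMSO array, and the rise was 1.36-fold in pre-miR-371 cells (log2 fold change 0.45, SE 0.07, adjusted p = 0.000120) and 1.30-fold in GFP vector cells (0.38, SE 0.07, adjusted p = 0.000442). Probe sets that FOXO3 shares with FOXO3B, its near-identical copy, were not used.

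FOXO4, an X-linked FOXO factor under the same control by AKT, was read from a single probe set with a low signal, with a mean log2 value of 5.03 over the 12 arrays. It had 5.67, 5.22 and 5.55 in pre-miR-371 cells in erlotinib, against 4.59, 4.28 and 4.26 in DMSO. In GFP vector cells it had 5.53, 5.47 and 5.67 in erlotinib, against 4.83, 4.77 and 4.51 in DMSO. The treatments did not overlap in either line, and FOXO4 rose 2.16-fold in pre-miR-371 cells (log2 fold change 1.11, SE 0.13, adjusted p = 1.32e-05) and 1.81-fold in GFP vector cells (0.86, SE 0.13, adjusted p = 0.000106). A log2 value of 6 was used here as the limit for low signals, and on such probe sets the size of a fold is less certain.

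CCNG2 encodes cyclin G2, an unconventional cyclin that restrains the cell cycle and is a textbook FOXO target. Its log2 values were 10.21, 10.21 and 10.31 in pre-miR-371 cells in erlotinib, against 6.99, 6.92 and 7.06 in DMSO. In GFP vector cells they were 10.25, 10.07 and 10.24 in erlotinib, against 7.09, 6.72 and 6.77 in DMSO. The treatments stood about 3 log2 units apart in each line, far beyond the spread of the arrays within a group. CCNG2 rose 9.56-fold in pre-miR-371 cells (log2 fold change 3.26, SE 0.09, adjusted p = 9.12e-11) and 10.0-fold in GFP vector cells (3.33, SE 0.09, adjusted p = 4.75e-11).

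RBL2 encodes p130, the pocket protein that binds E2F4 in resting cells as part of the DREAM repressor complex. It had log2 values of 9.35, 9.41 and 9.43 in pre-miR-371 cells in erlotinib, against 7.88, 7.91 and 8.07 in DMSO. GFP vector cells had 9.21, 9.28 and 9.38 in erlotinib, against 8.05, 7.78 and 7.89 in DMSO. The values of the lines overlapped within each treatment, and the rise was 2.72-fold in pre-miR-371 cells (log2 fold change 1.44, SE 0.08, adjusted p = 1.93e-08) and 2.61-fold in GFP vector cells (1.38, SE 0.08, adjusted p = 1.98e-08).

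BTG1, an antiproliferative protein that is abundant in quiescent cells, had log2 values of 10.88, 10.91 and 11.06 in pre-miR-371 cells in erlotinib, against 10.13, 10.26 and 10.38 in DMSO. The GFP vector arrays had 11.15, 11.15 and 11.14 in erlotinib, against 10.21, 10.19 and 10.18 in DMSO. The GFP vector arrays of each treatment were almost identical, while those of the pre-miR-371 line were spread more widely. BTG1 rose 1.62-fold in pre-miR-371 cells (log2 fold change 0.69, SE 0.07, adjusted p = 3.41e-06) and 1.94-fold in GFP vector cells (0.95, SE 0.07, adjusted p = 1.52e-07).

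PIK3IP1 encodes a membrane protein that binds PI3K and lowers its activity. Its log2 values were 8.20, 8.36 and 8.36 in pre-miR-371 cells in erlotinib, against 5.14, 5.22 and 5.25 in DMSO. The GFP vector arrays had 9.23, 9.00 and 8.87 in erlotinib, against 5.07, 5.49 and 5.59 in DMSO. In erlotinib every GFP vector array was above every pre-miR-371 array, while in DMSO the lines overlapped. PIK3IP1 rose 8.59-fold in pre-miR-371 cells (log2 fold change 3.10, SE 0.13, adjusted p = 1.37e-09) and 12.6-fold in GFP vector cells (3.65, SE 0.13, adjusted p = 2.48e-10). Its DMSO means, 5.20 in pre-miR-371 cells and 5.38 in GFP vector cells, lie under the limit of 6, so that the size of these folds is less certain.

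IRS2, the adaptor that couples insulin and IGF receptors to PI3K, was the only member lower in erlotinib, although FOXO factors are known to induce it, as in liver. Its log2 values were 10.78, 10.78 and 10.80 in pre-miR-371 cells in erlotinib, against 11.47, 11.43 and 11.49 in DMSO. In GFP vector cells they were 10.88, 10.90 and 10.84 in erlotinib, against 11.34, 11.46 and 11.45 in DMSO. No array overlapped between the treatments, and IRS2 was 1.60-fold lower in pre-miR-371 cells (log2 fold change −0.68, SE 0.05, adjusted p = 2.95e-07) and 1.46-fold lower in GFP vector cells (−0.54, SE 0.05, adjusted p = 1.71e-06).

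SESN1 encodes sestrin 1, a stress protein that restrains mTORC1 and is also induced by p53. It had log2 values of 6.96, 6.85 and 6.75 in pre-miR-371 cells in erlotinib, against 6.46, 6.47 and 6.47 in DMSO. GFP vector cells had 7.22, 7.04 and 7.08 in erlotinib, against 6.26, 6.33 and 6.22 in DMSO. The 4 groups of SESN1 did not overlap one another, the GFP vector line standing highest in erlotinib and lowest in DMSO. The rise was 1.30-fold in pre-miR-371 cells (log2 fold change 0.38, SE 0.07, adjusted p = 0.000508) and 1.79-fold in GFP vector cells (0.84, SE 0.07, adjusted p = 4.22e-07).

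SESN3, the sestrin best known as a FOXO target, had log2 values of 2.89, 2.48 and 2.61 in pre-miR-371 cells in erlotinib, against 2.57, 2.62 and 2.69 in DMSO. In GFP vector cells they were 2.66, 2.81 and 2.64 in erlotinib, against 2.99, 2.87 and 2.89 in DMSO. All 7 of its probe sets had means of at most 2.73, far under the limit of 6 for low signals, where the size and direction of a change are poorly measured. The log2 fold change was 0.04 in pre-miR-371 cells (SE 0.09, adjusted p = 0.794) and −0.21 in GFP vector cells (SE 0.09, adjusted p = 0.0853), where the arrays of the treatments did not overlap and the difference passed with arrays centred on their medians.

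**Figure D2:**
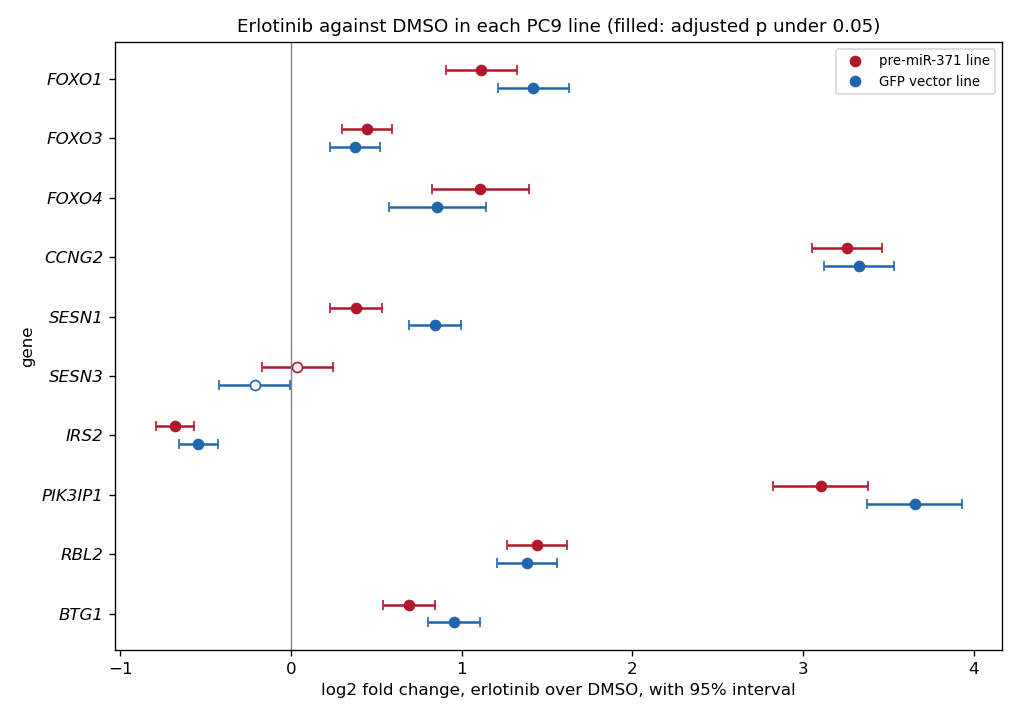
Log2 fold change of erlotinib over DMSO (x axis) with its 95% interval for each of the 10 genes (y axis), the pre-miR-371 line above the GFP vector line; filled points passed an adjusted p of 0.05. CCNG2 and PIK3IP1 lie beyond 3 in both lines, IRS2 alone lies to the left of 0 with filled points, and SESN3 is open in both lines.

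The other probe sets of the genes gave the same direction wherever the signal was not low, with p adjusted over all 41091 probe sets that carry 1 symbol. For CCNG2, 4 of 5 probe sets rose in both lines, with log2 fold changes of 2.52 to 3.29 in pre-miR-371 cells and 3.05 to 3.33 in GFP vector cells. Of the probe sets of FOXO1, 2 of 3 rose in both lines, as did 3 of 4 of FOXO3, 2 of 3 of PIK3IP1, 2 of 3 of BTG1 and both of RBL2, while both of IRS2 fell in both lines. The sizes differed between probe sets of PIK3IP1, at 1.49 for the dimmer against 3.10 for the brighter in pre-miR-371 cells and at 2.02 against 3.65 in GFP vector cells. The dimmer probe set of RBL2 likewise had 0.68 in pre-miR-371 cells and 0.96 in GFP vector cells. Each probe set of the called genes that passed in neither line had a mean log2 value under 6. SESN1 and FOXO4 have 1 probe set each and could not be compared in this way. For SESN3, 1 of 7 probe sets passed in GFP vector cells (log2 fold change 0.35, adjusted p = 0.00902) at a mean log2 value of 2.69, and it rose while the main probe set did not.

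**Figure D3:**
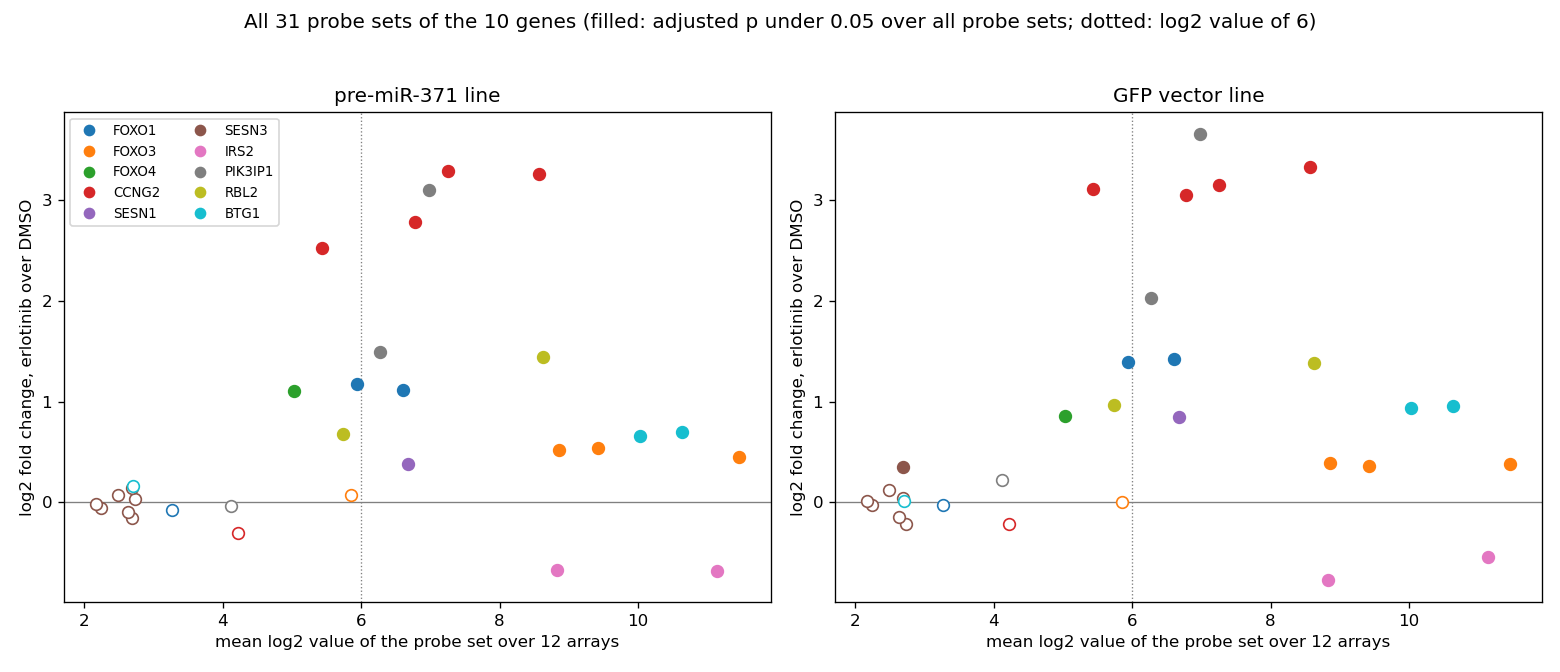
Log2 fold change of erlotinib over DMSO (y axis) against the mean log2 value over 12 arrays (x axis) for all 31 probe sets of the 10 genes, with the pre-miR-371 line on the left and the GFP vector line on the right; filled points passed an adjusted p of 0.05 over all probe sets, and the dotted line marks a log2 value of 6. The open points all lie to the left of that line.

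Next, the lines were set against each other within each treatment. In erlotinib, PIK3IP1 and SESN1 were lower in pre-miR-371 cells than in GFP vector cells, and none of the 10 genes was higher. Over all genes 9.46% fell below and 6.50% lay above GFP vector cells. These shares are 1870 and 1286 genes, and the counts were 1742 and 1759 with quantile normalization repeated. The median log2 fold change of the 10 genes was −0.08, beside −0.01 over all genes. PIK3IP1 averaged 8.31 ± 0.10 in pre-miR-371 cells and 9.03 ± 0.18 in GFP vector cells (log2 value, SD, n = 3 each), a 1.66-fold lower level (log2 fold change −0.73, SE 0.13, adjusted p = 0.00326). Its other probe set with signal was lower there too (−0.51, adjusted p = 0.0158). SESN1 averaged 6.85 ± 0.11 in pre-miR-371 cells and 7.11 ± 0.10 in GFP vector cells (log2 value, SD, n = 3 each), a 1.20-fold lower level (log2 fold change −0.26, SE 0.07, adjusted p = 0.0261). That call of SESN1 was lost without GFP vector erlotinib replicate 1 (adjusted p = 0.0973) or without pre-miR-371 erlotinib replicate 2 or 3 (adjusted p = 0.0700 and 0.103), and when only the groups compared were fitted (adjusted p = 0.0788).

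FOXO1, IRS2 and BTG1 were also without overlap between the lines in erlotinib, each with lower values in pre-miR-371 cells, but did not pass the test. With PIK3IP1 and SESN1 that makes 5 of the 10 genes lower without overlap and 0 higher, where 21.2% of all genes were lower and 14.9% higher without overlap. Their log2 fold changes were −0.18 for FOXO1 (adjusted p = 0.217), −0.09 for IRS2 (adjusted p = 0.280) and −0.20 for BTG1 (adjusted p = 0.0793). The second BTG1 probe set, of nearly the same brightness, was lower there and did pass (−0.45, adjusted p = 0.00455), so that the probe sets of BTG1 gave different answers here. CCNG2, RBL2 and FOXO3 overlapped between the lines in erlotinib, and the 95% intervals of their log2 differences ran over −0.15 to 0.26 for CCNG2, −0.07 to 0.28 for RBL2 and −0.16 to 0.14 for FOXO3. FOXO4 had −0.08, with an interval of −0.36 to 0.21.

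In DMSO, none of the 10 genes passed between the lines in either direction, where 1.62% of all genes were higher and 3.64% lower in pre-miR-371 cells (320 and 719 genes; 528 and 453 with quantile normalization repeated). At an unadjusted p under 0.05, 1 of the 10 was higher and 2 were lower, where 9.02% of all genes were higher and 13.8% lower, and the median of the 10 was 0.05. The log2 fold changes ran over −0.33 (FOXO4, adjusted p = 0.161) to 0.20 (SESN1, adjusted p = 0.111). SESN1 averaged 6.47 ± 0.01 in pre-miR-371 cells and 6.27 ± 0.05 in GFP vector cells in DMSO (log2 value, SD, n = 3 each), and its difference passed with quantile normalization repeated (adjusted p = 0.0259) and in a test limited to genes averaging 6 or more (adjusted p = 0.0355). SESN3, at its low signal, had −0.29 (adjusted p = 0.0993).

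The responses of the lines to erlotinib were then compared directly, as the log2 fold change in pre-miR-371 cells minus that in GFP vector cells. SESN1 alone passed, with a smaller rise in the pre-miR-371 line (difference −0.46, SE 0.10, 95% interval −0.67 to −0.25, adjusted p = 0.0354), where 0.561% of all genes had a lower and 1.44% a higher response (111 and 284 genes; 263 and 370 with quantile normalization repeated). The median difference was −0.10 over the 10 genes and −0.01 over all genes. At an unadjusted p under 0.05, 4 of the 10 had a lower and 0 a higher response, where 7.29% of all genes had a lower and 7.75% a higher one. The call of SESN1 was lost in several other settings. The adjusted p was 0.0651 when every probe set was tested and 0.0811 with arrays centred on their medians, and leaving out any of 10 of the 12 arrays put it between 0.0591 and 0.0870, with differences of −0.41 to −0.49. Of the fits without 1 array, it passed only without GFP vector erlotinib replicate 2 (adjusted p = 0.0490) or pre-miR-371 erlotinib replicate 1 (adjusted p = 0.0324). PIK3IP1 had a larger but noisier difference (−0.55, SE 0.18, 95% interval −0.94 to −0.16, adjusted p = 0.162) that rests on those low DMSO values. Its other probe set with signal had −0.53 and did not pass either (adjusted p = 0.164 over all probe sets). The DMSO means of that probe set, 5.40 in pre-miR-371 cells and 5.38 in GFP vector cells, were also under 6.

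FOXO1 had a difference of −0.30 (interval −0.60 to −0.01, adjusted p = 0.315) and BTG1 one of −0.26 (interval −0.48 to −0.04, adjusted p = 0.233), neither past the threshold. That of FOXO1 was −0.19 without GFP vector DMSO replicate 2 (adjusted p = 0.469) and −0.42 without replicate 1 of that group (adjusted p = 0.0740). With array weights it was −0.46 and passed (adjusted p = 0.0460). In that fit GFP vector DMSO replicate 2 had a weight of 4.22, against 0.37 and 0.60 for replicates 1 and 3. The weighted mean of that group thus rests mostly on 1 array, the one with the lowest FOXO1 value. For CCNG2 and RBL2 the differences were −0.07 (interval −0.36 to 0.22) and 0.06 (interval −0.19 to 0.31), small beside rises of at least 1.38 in each line. The remaining differences were 0.07 for FOXO3, 0.25 for FOXO4, 0.25 for SESN3 and −0.14 for IRS2. The comparison of the lines in erlotinib uses the same erlotinib arrays as this one, so that they are not separate evidence.

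**Figure D4:**
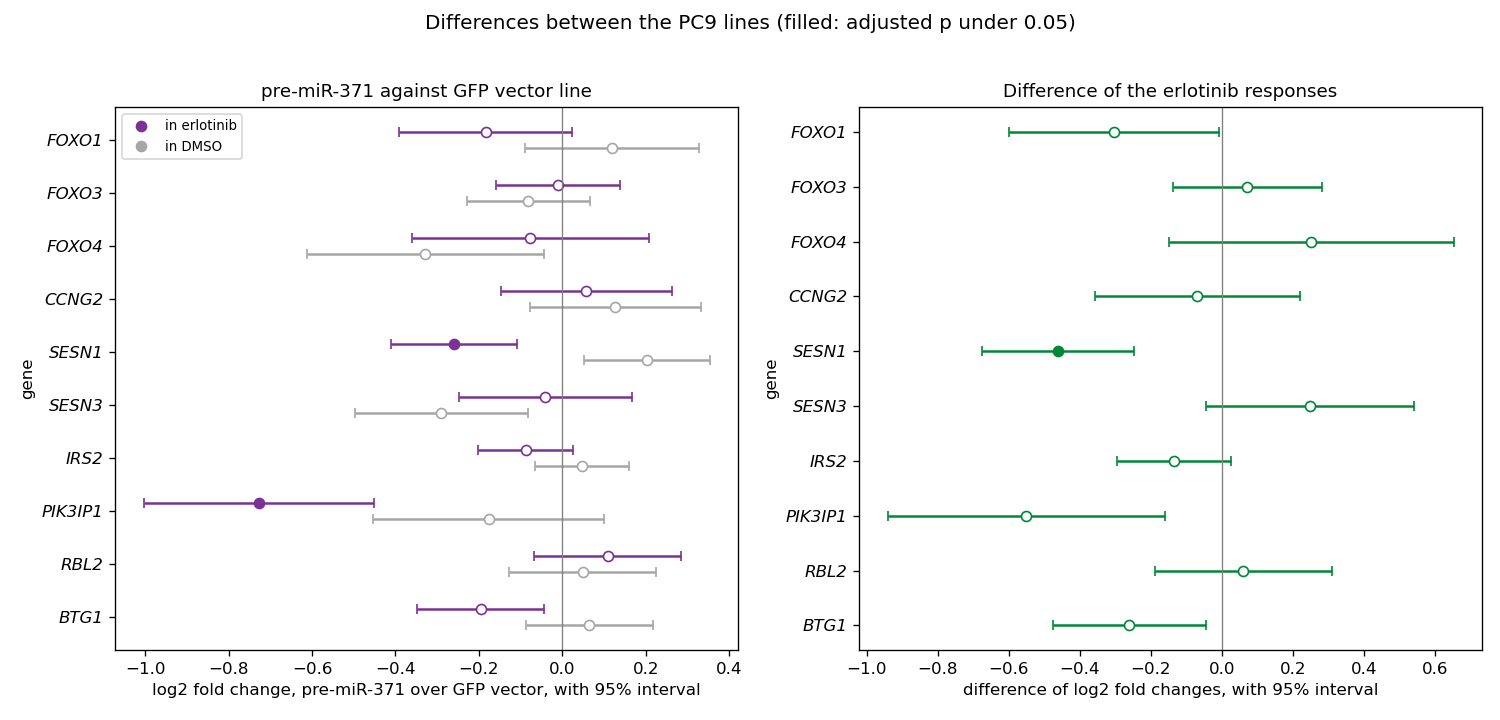
Left, log2 fold change of pre-miR-371 over GFP vector cells (x axis) in erlotinib (above) and in DMSO (below) for each gene (y axis); right, the difference of the erlotinib responses, both with 95% intervals and filled points at an adjusted p under 0.05. In erlotinib the points of PIK3IP1 (−0.73) and SESN1 (−0.26) are filled, in DMSO no point is, and among the differences of responses only SESN1 (−0.46) is.

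Genes of proliferation, from a list of 10 known cell cycle and replication genes, differed between the lines in the same comparisons. All 10 fell in erlotinib in both lines, where 22.2% of all genes fell in pre-miR-371 cells and 23.4% in GFP vector cells. The median log2 fold change of the 10 was −0.69 in pre-miR-371 cells and −1.13 in GFP vector cells. The mean log2 value of the list was 9.67 to 9.71 on pre-miR-371 arrays in erlotinib and 9.17 to 9.24 on GFP vector arrays in erlotinib, against 10.3 on the arrays of either line in DMSO. In erlotinib 9 of the 10 were higher in pre-miR-371 cells, with log2 fold changes of 0.25 (AURKB) to 0.75 (TOP2A), where 6.50% of all genes were higher. A smaller fall there was seen for 7, where 1.44% of all genes had a higher response. Besides AURKB and TOP2A, the higher ones in erlotinib were MKI67, PCNA, MCM2, CCNB1, CDK1, BIRC5 and CCNA2. CCNA2, the cyclin of S phase and G2, had log2 fold changes of −0.85 in pre-miR-371 cells (adjusted p = 3.39e-08) and −1.32 in GFP vector cells (adjusted p = 5.90e-10). The part of these genes in the differences of SESN1 and PIK3IP1 was not tested.

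Epithelial markers were bright in every group. All 8 epithelial markers measured had means of at least 6, and averaged 11.98 to 12.04 on the arrays in erlotinib against 11.34 to 11.42 on those in DMSO. The epithelial transcription factor ELF3 had the largest rise of them (3.28 in pre-miR-371 cells and 3.26 in GFP vector cells), before the tight junction protein CLDN4 (1.24 in pre-miR-371 cells and 1.26 in GFP vector cells) and the keratins KRT8 and KRT19, which rose too. Of the 8, 5 rose and 1 fell in pre-miR-371 cells, and 4 rose and 3 fell in GFP vector cells. The shares of all genes were 24.8% and 22.2% in pre-miR-371 cells, and 26.5% and 23.4% in GFP vector cells. EPCAM fell in both lines (−0.23 in pre-miR-371 cells and −0.19 in GFP vector cells), and KRT18 fell in GFP vector cells (−0.14). CDH1, the epithelial cadherin, rose in pre-miR-371 cells (0.16) and fell in GFP vector cells (−0.16). In erlotinib it was higher in pre-miR-371 cells (0.30). Fibroblast markers averaged 4.16 to 4.36, with 5 of 6 under 6. None of them (DCN, PDGFRB, COL3A1 and LUM had the smallest p) passed for erlotinib, and PDGFRB, at a low signal, was lower in pre-miR-371 cells in erlotinib (−0.40, adjusted p = 0.0291). The 4 leukocyte markers measured were all under 6 and averaged at most 4.40 on an array in erlotinib against at most 3.95 in DMSO. Of these ITGAM rose (1.28 in pre-miR-371 cells and 1.14 in GFP vector cells), while PTPRC, CD3E and CD14 did not pass. Array medians were 4.31 to 4.41, arrays of a group correlated at 0.996 to 0.997, and no pair of arrays was identical.

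Other genes known to be induced by FOXO factors were taken from a list of 33, chosen with earlier results known, of which 32 were measured. In erlotinib 20 of them rose and 3 fell in pre-miR-371 cells, where 24.8% of all genes rose and 22.2% fell. In GFP vector cells 21 rose and 4 fell, where 26.5% of all genes rose and 23.4% fell. The median log2 fold change of the 32 was 1.01 in pre-miR-371 cells, where that of all genes was −0.03. In GFP vector cells it was 1.12, where that of all genes was 0.00. TNFSF10, the death ligand TRAIL, had the largest rise of the list, with mean log2 values of 10.24 in erlotinib against 3.16 in DMSO in pre-miR-371 cells and 11.03 against 3.15 in GFP vector cells. SELENOP, the plasma selenium carrier, rose by a log2 fold change of 6.09 in pre-miR-371 cells (adjusted p = 1.22e-11) and 5.55 in GFP vector cells (adjusted p = 1.24e-11). DEPP1, a FOXO-induced regulator of autophagy, had 4.31 in pre-miR-371 cells and 4.92 in GFP vector cells. As TNFSF10, SELENOP and DEPP1 all averaged under 6 in DMSO, those folds are uncertain in size. The repressor BCL6 had 2.76 in pre-miR-371 cells and 2.75 in GFP vector cells. Members of the list that fell in both lines were CDKN1A, the inhibitor p21 (−0.90 in pre-miR-371 cells and −0.91 in GFP vector cells), BNIP3, a mitophagy receptor (−1.31 in pre-miR-371 cells and −1.37 in GFP vector cells), and KLF6 (−0.93 in pre-miR-371 cells and −1.21 in GFP vector cells), a transcription factor named after its values were seen.

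Between the lines in erlotinib, 10 of these 32 genes were lower and 3 higher in pre-miR-371 cells, where 9.46% of all genes were lower and 6.50% higher. With quantile normalization repeated, 1742 of all genes were lower and 1759 higher. The median of the 32 was −0.14, beside −0.01 over all genes. The lower ones were TNFSF10 (−0.79, adjusted p = 0.00155), DEPP1 (−0.52), ERBB3 (−0.45), PINK1 (−0.43), CAT (−0.29), CDKN1A (−0.28), MXI1 (−0.27), TRIM63 (−0.27), GADD45A (−0.20) and TXNIP (−0.18), of which TRIM63 was under 6 in every group. The higher ones were SELENOP (0.48), CDKN1B, the inhibitor p27 (0.39), and BNIP3 (0.25). In DMSO CDKN1B was already higher (0.36, adjusted p = 0.0278), and CDKN1A and GADD45A were already lower (both −0.28). Of all genes, 1.62% were higher and 3.64% lower in DMSO. The responses differed for TNFSF10 (−0.80, adjusted p = 0.0351) and CAT, which encodes catalase (−0.36, adjusted p = 0.0442), both with a smaller rise in pre-miR-371 cells. Both lie near the threshold, as SESN1 does. Over all genes 111 (0.561%) had a lower response, against 61 with every probe set tested and 65 with arrays centred on their medians.

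Of 27 genes of PI3K and AKT signalling, 22 were measured, of which 8 rose and 5 fell in pre-miR-371 cells and 10 rose and 5 fell in GFP vector cells. The share that fell was near that of all genes (22.2% in pre-miR-371 cells and 23.4% in GFP vector cells), and over all genes 24.8% rose in pre-miR-371 cells and 26.5% in GFP vector cells. The median of the 22 was 0.08 in pre-miR-371 cells and 0.13 in GFP vector cells. IRS1, the relative of IRS2 that couples receptors to PI3K, fell the most, with log2 fold changes of −2.33 in pre-miR-371 cells (adjusted p = 1.24e-10) and −2.51 in GFP vector cells (adjusted p = 4.32e-11). PHLPP2, a phosphatase that removes phosphate from AKT, fell too (−1.10 in pre-miR-371 cells and −1.64 in GFP vector cells). PHLPP1 rose instead (0.55 in pre-miR-371 cells and 0.69 in GFP vector cells). SGK1, an AKT-related kinase that can also phosphorylate FOXO3, rose in both lines (1.08 in pre-miR-371 cells, adjusted p = 5.48e-09, and more in GFP vector cells, adjusted p = 2.57e-10), as did TSC1, a brake on mTORC1 (0.65 in pre-miR-371 cells and 0.80 in GFP vector cells). In erlotinib, IRS1 (0.27) and PHLPP2 (0.47) were higher in pre-miR-371 cells, and SGK1 (−0.47), PHLPP1 (−0.46), INPP4B (−0.30) and PIK3R3 (−0.24) were lower. Of all genes, 6.50% were higher and 9.46% lower in that comparison. None of the 22 passed in DMSO, and the responses differed for SGK1 alone (−0.42, adjusted p = 0.0150).

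All 20 listed regulators of FOXO proteins were measured, of which 12 fell and 4 rose in pre-miR-371 cells and 13 fell and 3 rose in GFP vector cells. Over all genes 22.2% fell and 24.8% rose in pre-miR-371 cells, and 23.4% fell and 26.5% rose in GFP vector cells. The median of the 20 was −0.21 in pre-miR-371 cells and −0.39 in GFP vector cells. Among the 14-3-3 proteins, which hold phosphorylated FOXO in the cytoplasm, YWHAH fell, with log2 fold changes of −1.01 in pre-miR-371 cells (adjusted p = 8.61e-08) and −1.35 in GFP vector cells (adjusted p = 4.91e-09), and so did SFN (−0.56 in pre-miR-371 cells and −0.94 in GFP vector cells). PRMT1, a methyltransferase that methylates FOXO1, fell too (−0.84 in pre-miR-371 cells and −0.85 in GFP vector cells), as did CDK2, which can phosphorylate FOXO1 (−0.41 in pre-miR-371 cells and −0.82 in GFP vector cells). In erlotinib YWHAH (0.32), CDK2 (0.30), YWHAQ (0.24), SKP2 (0.22) and the nuclear exporter XPO1 (0.20) were higher in pre-miR-371 cells, where 6.50% of all genes were higher. In DMSO, SFN (−0.23) and the kinase STK4 (−0.26) were lower there, and the fall was smaller there for SFN (difference 0.38) and CDK2 (0.40).

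Of the 11 other genes of the pocket protein family and the DREAM complex, all measured, 1 rose and 4 fell in pre-miR-371 cells, and 1 rose and 6 fell in GFP vector cells, with a median of −0.16 in pre-miR-371 cells and −0.42 in GFP vector cells. Over all genes 24.8% rose and 22.2% fell in pre-miR-371 cells, and 26.5% rose and 23.4% fell in GFP vector cells. LIN37, a core subunit of DREAM, was the one that rose (0.92 in pre-miR-371 cells and 0.94 in GFP vector cells). E2F5, a repressor E2F, fell (−1.58 in pre-miR-371 cells and −1.80 in GFP vector cells), as did its dimer partner TFDP1 (−0.85 in pre-miR-371 cells and −1.01 in GFP vector cells) and LIN9 (−0.48 in pre-miR-371 cells and −0.76 in GFP vector cells). In erlotinib RBL1 (0.59), LIN9 (0.37), LIN52 (0.37), RB1 (0.34), E2F5 (0.30) and E2F4 (0.30) were higher in pre-miR-371 cells, RBL1 and LIN9 at values under 6 in every group. Of all genes, 6.50% were higher and 9.46% lower in that comparison. None of the 11 passed in DMSO or in the difference of responses.

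Of 8 relatives of the 10 genes, 7 were measured, and 5 rose in both lines. In pre-miR-371 cells 1 fell, and in GFP vector cells 2 fell. Of all genes, 24.8% rose and 22.2% fell in pre-miR-371 cells, and 26.5% rose and 23.4% fell in GFP vector cells. FOXO6, the remaining FOXO factor, rose with log2 fold changes of 2.64 in pre-miR-371 cells (adjusted p = 1.51e-09) and 2.28 in GFP vector cells (adjusted p = 3.62e-09). TOB1, of the antiproliferative family of BTG1, rose (1.16 in pre-miR-371 cells and 1.40 in GFP vector cells), as did CCNG1, the relative of CCNG2 (0.61 in pre-miR-371 cells and 0.72 in GFP vector cells). BTG3 fell instead (−0.91 in pre-miR-371 cells and −1.53 in GFP vector cells), less in the pre-miR-371 line (difference 0.62, adjusted p = 0.00720). It was higher there in erlotinib (0.22) and lower in DMSO (−0.40), and TOB1 (0.26) and TOB2 (0.30) were higher there in DMSO.

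**Figure D5:**
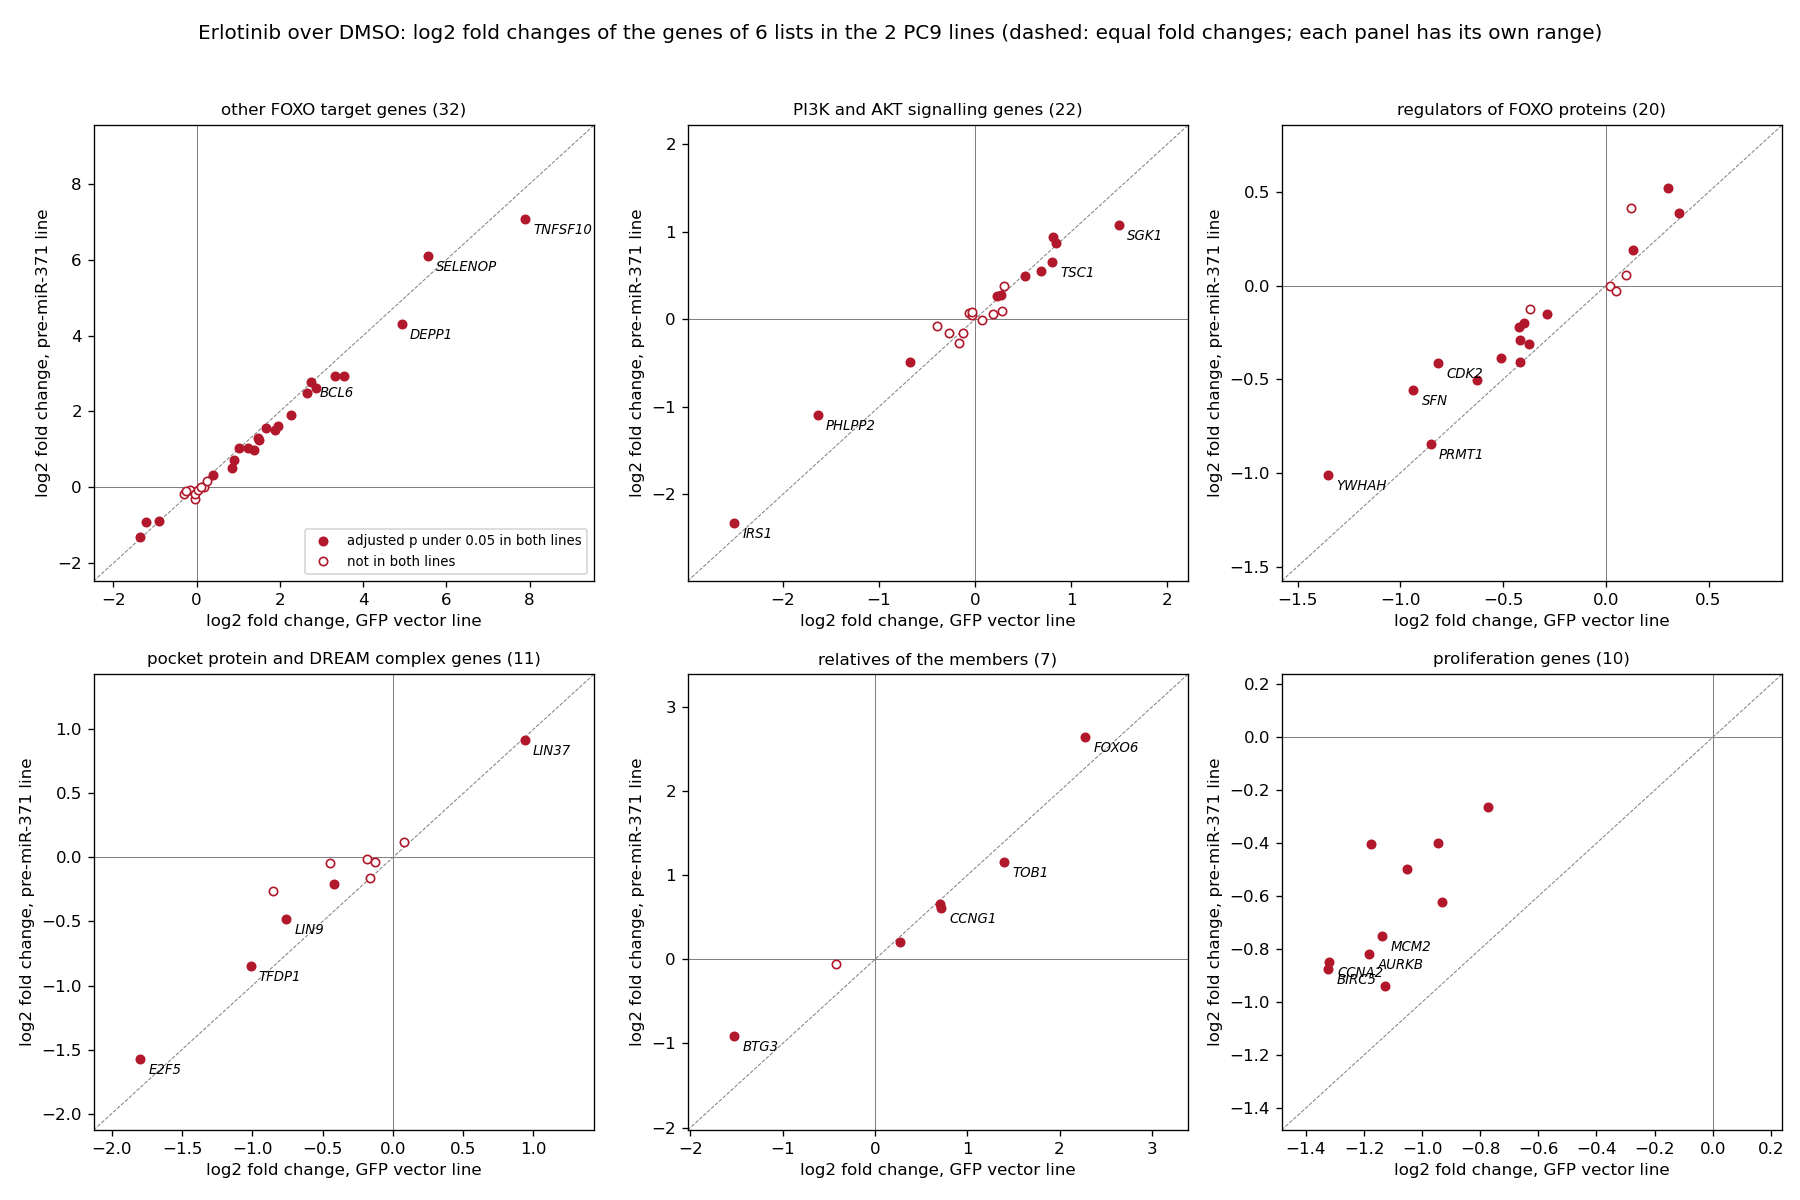
Log2 fold change of erlotinib over DMSO in the pre-miR-371 line (y axis) against that in the GFP vector line (x axis) for the genes of 6 lists, each panel with its own range; filled points passed in both lines, the 4 genes with the smallest p of each list are named, and the dashed line marks equal fold changes. TNFSF10 stands farthest out among the other FOXO targets, and all 10 proliferation genes lie above the dashed line in the lower left (7 passed the test of the difference of responses).

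The genes most like each factor over the 12 arrays, among those that averaged 6 or more on the log2 scale, are given as a description, since the arrays share 2 treatments and 2 lines. They were picked by their correlation on the same arrays, so that the values with group means taken off are not a separate check. For FOXO1 they were CHST12, CPS1 and ACVR1, with Pearson r of 0.998, 0.996 and 0.995 over the 12 arrays and of 0.93, 0.90 and 0.79 once each group's mean was taken off. For FOXO3 they were DNAJB14, OGA and RHPN2 (0.979, 0.978 and 0.978, and 0.79, 0.80 and 0.81 with group means taken off). For FOXO4 they were HGSNAT, SYNRG and ARHGAP42 (0.977, 0.976 and 0.975, and 0.89, 0.71 and 0.70 with group means taken off). Their erlotinib log2 fold changes were 0.35 to 1.30 in the 2 lines.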

How the data were processed

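The authors extracted total RNA and hybridised it to Affymetrix Hgu133plus2 arrays. The deposited log2 values, 1 per probe set and array, were already normalized: quantile normalization is named in the methods, and RMA and affy in the submitters' processing notes, without versions. Differences in total RNA between samples are therefore scaled away, and background signal compresses the folds of dim probe sets. The deposited arrays still differed in distribution, with upper quartiles of 6.72 to 6.92. Among genes averaging 6 or more, the median log2 fold change of pre-miR-371 over GFP vector cells was −0.06 in DMSO and −0.04 in erlotinib. Of 54675 probe sets, 41097 carried 1 symbol and were kept, less the controls. For each of 19775 genes the probe set with the highest mean was used.

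Groups came from the sample labels. Models were fitted with limma 3.58.1 (R 4.3.3), by lmFit followed by eBayes, on all 12 arrays with 1 mean per group. The model was tested on simulated data with 200 changed genes, for erlotinib against DMSO in the pre-miR-371 line. It recovered 36% of changes of 0.3 on the log2 scale, 76% of 0.6, 94% of 1 and 100% of 2, with 10 false calls. Small differences can thus be missed. With 3 arrays against 3, an exact permutation test cannot go under 0.1, so overlap of arrays is given instead. The number of arrays limits the precision.

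The genes and lists were chosen with earlier results of these data known. From each list, the 4 genes with the smallest adjusted p over both erlotinib comparisons were named, plus any that differed between lines or in response. KLF6, EPCAM and KRT18 were named outside this rule. List genes not matched were not analysed here. The alternatives were other choices of probe set, a filter on low values, the groups fitted, a replicate block, normalization, variance model, array weights, each array left out, the methods' t-test and other call limits. Figures were drawn with matplotlib 3.10.9.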

Additional observations from a re-analysis of the deposited data

Results flagged for a closer look

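Among the FOXO factors and their targets, SESN1 was picked out because its erlotinib response differed between the lines by the interaction test in limma, at −0.46 on the log2 scale (pre-miR-371 minus GFP vector cells, adjusted p = 0.0354). The same test picked out 2 other FOXO targets with a smaller rise in the pre-miR-371 line, TNFSF10 at −0.80 and CAT at −0.36. The kinase SGK1 also had a smaller rise there, at −0.42. Falls were smaller in the pre-miR-371 line for SFN (0.38), CDK2 (0.40) and BTG3 (0.62). They were also smaller for MKI67 (0.77), TOP2A (0.55), PCNA (0.55), MCM2 (0.38), CDK1 (0.51), BIRC5 (0.45) and CCNA2 (0.47), all genes of proliferation. CDH1, the epithelial cadherin, had a difference of 0.32. With 3 arrays in each group, single arrays were not tested for standing apart.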

How the results depend on the processing

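The calls of the 9 genes changed by erlotinib held in both lines under every alternative fit that tested them (FOXO4 fell out with a mean log2 of at least 6), and only that of SESN3 moved, in GFP vector cells. GFP vector cells had 2 genes lower with arrays centred on medians or at an unadjusted p, 0 with a fold over 1.5, and 1 to 2 with 1 array left out. Between the lines in erlotinib, 2 genes were lower: 1 with only the groups compared, with a fold over 1.5 or at an adjusted p under 0.01, 0 by the methods' t-test (PIK3IP1 adjusted p = 0.05002), and 1 to 2 with 1 array left out. In DMSO limma and the methods' t-test both called 0 genes, while 1 gene was higher with a mean log2 of at least 6, with quantile normalization repeated or at an unadjusted p, and array weights gave 2 higher and 2 lower. There 2 were lower at an unadjusted p, and 0 to 1 with 1 array left out. For the difference of responses, 0 genes were lower with every probe set tested, arrays centred on medians, a fold over 1.5 or an adjusted p under 0.01, 3 with trend and robust variance, 2 with array weights, 4 at an unadjusted p, and 0 to 1 with 1 array left out.

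Some uncalled log2 differences changed sign. With the mean of all probe sets they were −0.093 for CCNG2 and −0.026 for RBL2 between the lines in erlotinib, and 0.0080 (SESN3), −0.0016 (IRS2), 0.028 (PIK3IP1) and −0.051 (BTG1) in DMSO. For SESN3 they were −0.012 in pre-miR-371 cells and 0.021 in GFP vector cells for erlotinib, and −0.033 for the difference of responses, where RBL2 had −0.11. Array weights gave −0.015 for SESN3 in pre-miR-371 cells and −0.038 for the RBL2 difference. With 1 array left out, the lines in erlotinib differed by −0.062 to 0.036 (FOXO3), −0.17 to 0.052 (FOXO4) and −0.16 to 0.049 (SESN3), RBL2 in DMSO by −0.016 to 0.12, the responses by −0.18 to 0.0024 (CCNG2) and −0.012 to 0.12 (RBL2), and SESN3 in pre-miR-371 cells by −0.078 to 0.13. The cause was not tested.

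Replicate numbers were not taken to pair the arrays, as no label ties a number to a culture or day and the correlations of deviations were −0.06 to 0.20. With the replicate number as a block, 8 genes were higher and 1 lower in each line, 2 lower between the lines in erlotinib and 1 in the difference of responses (adjusted p = 0.0395), as without it. As a hint from the data only, 10 of 12 arrays correlated best with their own number. Of the counts of the other lists, 52 moved by over 1.5 times under another probe set rule, filter or scaling and 308 did not. Low signal limits FOXO4 and SESN3, and PIK3IP1 in DMSO.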
